A study of Homo sapiens with 10 samples.

Results

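Genes for the proteins of the cytosolic ribosome were followed as a set of housekeeping loci in an ATAC-seq study of the transcription factor GATA6. The set holds 49 genes, 30 for proteins of the large subunit (names starting RPL) and 19 for the small subunit (RPS), out of 19974 protein-coding genes. For each gene, every peak inside its RefSeq gene body or within 5000 bp of either end was taken from all 10 deposited peak lists. These windows held 142 of 120452 merged regions of the degron lists and 164 of 157584 merged regions of the WT and KO lists, and no member's window overlapped another's. A start site was listed in the RefSeq promoter table used here for 41 of the 49 genes. The other 8 (RPL5, RPL7, RPL8, RPL23, RPL30, RPL37, RPS2 and RPS20) were described from their gene ends.

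All libraries came from DLD-1, an established human colorectal adenocarcinoma line, with 2 libraries in each of 5 groups. In ATAC-seq a transposase cuts and tags accessible DNA, so that peaks of reads mark open chromatin. Of these groups, 3 carry the genotype GATA6-AID-IAA7, in which GATA6 bears a degron tag that leads to destruction of the protein when auxin (IAA, 500 µM) is added. AID_ctrl is labelled with auxin at 0 h and was read as untreated, AID_aux was treated for 12 h, and in AID_wash the auxin was removed by washing (time given as 1, without a unit). WT cells are labelled as wild type and KO cells as GATA6-KO, both without a treatment. The degron cells were clones, in a number not given in the sources used here. Nothing says that the 2 libraries of a group were separate cultures, so a p-value reflects only the scatter among these libraries, possibly of technical origin. In such bulk libraries, fewer open cells and less accessibility per cell cannot be told apart.

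Ribosomal protein genes are among the most heavily transcribed genes of growing cells, and their products assemble with ribosomal RNA in the nucleolus. Their transcripts typically begin with a C inside a run of pyrimidines, the terminal oligopyrimidine (TOP) motif, through which mTOR signalling controls their translation. Their promoters are compact, often lack a TATA box, and are open in nearly every cell type, which is why such genes serve as constitutive controls beside factor-dependent sites. GATA6 is a zinc-finger factor of endoderm-derived epithelia, and AGATAA and TGATAA are among the letters it binds.

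Start regions of 12 members that the results below turn on are shown from 100 bases before to 20 bases after the first listed start, 5′ to 3′ on the gene's own strand, from RefSeq, GRCh38.p14. Capitals mark the longest run of pyrimidines that touches the positions from 5 before to 5 after the start. The first 4 are the members with the highest (RPL11, RPL34) and lowest (RPL19, RPS27) median percentile of peak enrichment at the start, and the next 3 are the stalk proteins. RPS6, RPS14 and RPS19 are shown for their known roles, and the last 2 (RPS3, RPL26) because the WT and KO lists called their starts least completely or differently.
RPL11 (chr1:23691679-23691798, plus strand): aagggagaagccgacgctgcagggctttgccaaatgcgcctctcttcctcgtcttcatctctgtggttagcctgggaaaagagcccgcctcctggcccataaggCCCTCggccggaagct
RPL34 (chr4:108620476-108620595, plus strand): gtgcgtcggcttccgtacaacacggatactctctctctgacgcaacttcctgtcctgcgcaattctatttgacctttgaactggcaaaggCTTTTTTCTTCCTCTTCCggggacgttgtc
RPL19 (chr17:39200183-39200302, plus strand): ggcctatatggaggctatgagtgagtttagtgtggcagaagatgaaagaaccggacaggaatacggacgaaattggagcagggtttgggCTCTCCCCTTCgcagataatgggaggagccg
RPS27 (chr1:153990662-153990781, plus strand): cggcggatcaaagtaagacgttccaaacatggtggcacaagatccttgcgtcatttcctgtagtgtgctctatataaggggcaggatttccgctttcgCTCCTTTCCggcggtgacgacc
RPLP0 (chr12:120201092-120201211, minus strand): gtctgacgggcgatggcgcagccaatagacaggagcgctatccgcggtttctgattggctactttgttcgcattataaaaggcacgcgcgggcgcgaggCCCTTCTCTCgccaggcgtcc
RPLP1 (chr15:69452718-69452837, plus strand): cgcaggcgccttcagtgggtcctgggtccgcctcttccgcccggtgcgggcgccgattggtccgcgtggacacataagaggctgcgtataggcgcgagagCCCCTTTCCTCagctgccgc
RPLP2 (chr11:809867-809986, plus strand): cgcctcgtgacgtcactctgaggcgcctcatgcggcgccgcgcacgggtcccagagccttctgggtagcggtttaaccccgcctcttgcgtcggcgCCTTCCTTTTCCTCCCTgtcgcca
RPS6 (chr9:19380217-19380336, minus strand): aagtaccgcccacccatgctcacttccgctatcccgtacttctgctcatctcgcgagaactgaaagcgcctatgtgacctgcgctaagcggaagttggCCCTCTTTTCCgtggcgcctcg
RPS14 (chr5:150449720-150449839, minus strand): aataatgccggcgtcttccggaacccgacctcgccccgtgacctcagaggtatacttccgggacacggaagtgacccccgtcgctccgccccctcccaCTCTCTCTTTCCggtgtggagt
RPS19 (chr19:41860155-41860274, plus strand): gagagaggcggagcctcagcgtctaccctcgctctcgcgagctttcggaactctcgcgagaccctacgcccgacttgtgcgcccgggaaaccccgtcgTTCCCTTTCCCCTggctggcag
RPS3 (chr11:75399418-75399537, plus strand): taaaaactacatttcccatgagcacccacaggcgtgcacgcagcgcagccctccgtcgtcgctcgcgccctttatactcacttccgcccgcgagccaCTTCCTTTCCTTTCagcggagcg
RPL26 (chr17:8383174-8383293, minus strand): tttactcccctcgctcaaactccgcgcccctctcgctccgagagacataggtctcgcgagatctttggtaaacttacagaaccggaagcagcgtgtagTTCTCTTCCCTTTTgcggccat

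The pyrimidine run was the feature these starts shared. It had a median length of 11 bases in the 41 members, against 3 in all 15812 protein-coding genes with a listed start. A run of at least 8 bases was present in 30 members (73.2%), against 11.0% of all genes. A C at the listed start followed by 4 pyrimidines was present in 28 members (68.3%), against 4.6% of all genes. RPL34 had the longest run, 18 bases, whereas RPL11 had 5 bases at its first listed start. Only the first listed start of each gene was measured, which for RPL6 was called in 0 libraries.

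Known promoter motifs were searched as exact letters on both strands of the 300 bp from 250 before to 50 after the first listed start. The ETS-family letters CCGGAAG were present in 14 of 41 members (34.1%), against 14.2% of promoters of all genes. Of the members printed above, these were RPL11, RPL34, RPL19, RPLP2, RPS6, RPS14 and RPL26. The CRE letters TGACGT occurred in 9 of 41 members and in 9.66% of all genes. The shares were close for the SP1 letters GGGCGG (58.5% of both) and the NFY letters CCAAT (36.6% against 36.3%). AAGATGG of YY1 was found in 9.76% against 6.40%, TATAAA in 9.76% against 9.64%, and the E-box CACGTG in 4.88% against 8.87%. The GATA letters AGATAA or TGATAA were present in 3 of 41 members (7.32%), RPL6, RPL19 and RPS25, against 12.0% of all genes. Other forms of the GATA letters were not searched. At RPL6 the searched first listed start was called in 0 libraries. Its other start, 2157 bp further into the gene and called in 10, was not searched. RPL19 holds agataa directly after its first listed start, as the printed sequence shows. CCGGAAG and the other motifs were not required to be free of overlap, and a match is a description of letters, not of a bound site.

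The lists differed in length, which bears on every comparison below. The degron lists covered 56.7 to 70.2 Mb, the WT lists 46.4 and 33.0 Mb and the KO lists 65.2 and 58.1 Mb. Degron peaks have an interval, a summit and a deposited fold enrichment, whereas the WT and KO lists hold only windows of 500 bp, so that the 2 kinds of list were never compared in length. The files hold no read counts, so the depth is unknown. GATA6 itself had a called peak at one gene end in all 10 lists, which checks neither the degron nor the knockout. Of 10 colon epithelium markers, 6 were called at a gene end in all 10 libraries (6 to 8 in each), and CDX1 and CDH17 in none. Of 10 markers of blood, stroma and endothelium, 1 to 4 were called per library and none in all 10, and PTPRC, COL1A1, PECAM1 and CDH5 were among those called in none. By start windows, 3 epithelial markers had a listed start and all 3 were called in every library, and the 2 other markers with one were called in none.

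Ribosomal protein genes were open at or near their starts in every condition. All 49 had a peak in their windows in every library. In each of the 6 degron libraries, a peak overlapped the start window (250 bp before to 50 bp after) in 41 of 41 members, against 63.3 to 64.5% of all genes. In the WT libraries the start windows of 35 and 39 members were called, against 57.5% and 55.1% of all genes, and in the KO libraries those of 35 and 30, against 57.1% and 54.8%. Among the 9780 genes called at the start in all 6 degron libraries, WT called 89.6% and 87.1% and KO 86.4% and 83.9%, against 85.4%, 95.1%, 85.4% and 73.2% of members in the same order. The windows of 28 members (68.3%) were called in all 10 libraries, against 46.5% of all genes. Within 1000 bp of the start, 41 of 41 were called in all 10 libraries, against 61.4% of all genes.

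Lists of other genes of translation had a larger share called at the start in all 10 libraries than the members' 68.3%, a difference that was not tested. Of 22 further ribosomal protein genes with a listed start, 22 were called in each degron library and 19 in all 10 (86.4%). Of 12 translation factors, 10 were called in all 10 libraries (83.3%), and of 18 ribosome assembly factors, 15 were (83.3%). Of the 9780 genes, 75.1% were called at the start in all 10 libraries, against 68.3% of members, a difference that was not tested.

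The 8 members without a listed start each had 1 gene end called in all 10 libraries. RPL5, whose protein joins RPL11 and 5S ribosomal RNA in a particle that restrains MDM2, was called at its lower end in 10 libraries and at its upper end in none. For the other 7 it was the upper end that was called in all 10. The lower end was called as well in 3 libraries for RPL37 and for RPS2.

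Where a gene has several listed starts, the number of libraries calling them differed between starts in 3 cases. RPL6, a large-subunit protein, had its upstream start called in 0 libraries and its other start, 2157 bp further into the gene, in 10. RPL15 was called in 6 libraries at its first start and in 10 at each of the other two. RPL32 was called in 8, 7 and 6 libraries at its listed starts. In the degron lists, 1 merged region called in all 6 libraries spanned all listed starts of RPL15, and likewise 1 those of RPL32. Their counts thus differ by the placement of the 500 bp WT and KO windows and do not tell the starts apart. The remaining genes with more than 1 listed start (RPL11, RPL34, RPL13, RPL19 and RPS19) were called in 10 libraries at each.

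Of the 41 starts, 13 fell outside the called windows of at least 1 WT or KO library, and all 13 were called in the 6 degron lists. RPS3, a small-subunit protein at the mRNA entry channel, was called at the start in none of the 4 WT and KO libraries. Its nearest 500 bp windows were centred 358 and 660 bp downstream in WT and 618 and 696 bp downstream in KO. RPL12, a protein of the stalk base, was called at the start in neither WT library and in both KO libraries. The reverse held for RPL26, which sits near the exit of the peptide tunnel, and for RPL32: both WT libraries and neither KO library called them. RPL28, RPLP2 and RPS7 were called only in WT replicate 2. RPL29, RPL38, RPLP1, RPS10 and RPS14 were missed only in KO replicate 2, and RPS13 only in WT replicate 1. No member was without a window near its start: the centre of the nearest window lay at most 944 bp away. The median distance of that centre from the start was 178 and 126 bp in WT and 158 and 264 bp in KO.

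Within the degron lists, the peaks at member starts had a lower median fold enrichment than those at all called promoters and intervals of similar width. The deposited enrichment is the authors' value and was ranked only within each list, as a percentile among that list's peaks. The median member stood at percentile 76.4 (74.1 to 79.5 over the 6 lists), with a median enrichment of 7.99 to 8.76. The median over all called promoters was percentile 85.1 (84.9 to 85.6). By the deposited −log10 p, the median member stood at percentile 91.3 (88.3 to 91.4), against 90.7 for all called promoters. The interval at a member start had a median of 1236 bp against 1288 bp. The 22 further ribosomal protein genes stood at percentile 72.7 of enrichment, the translation factors between 76.5 and 84.3 over the lists and the ribosome assembly factors at 89.9. These differences between lists of genes were not tested.

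Members differed widely among themselves, and the differences recurred from list to list. RPL11 had the highest median percentile over the 6 lists, with an enrichment of 11.6 and 14.4 in AID_ctrl, 17.9 and 15.8 in AID_aux and 14.3 and 16.3 in AID_wash. RPL34, a large-subunit protein, had 14.4 and 11.1, 14.9 and 14.3, and 13.3 and 12.6 in the same order. In AID_ctrl replicate 1, RPL34 was above RPL11. Both stood at or above percentile 89.7 in every list, with medians of 98.3 and 96.8. RPL22, a large-subunit protein that can be replaced by a paralogue, had an enrichment of 12.0 to 15.2. RPS7, which binds MDM2, had 10.2 to 13.8, and RPL9 had 10.5 to 12.1. These 5 were the highest members by median percentile.

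The lowest were RPL19, RPS27, RPL13, RPL3 and RPL38. RPL19, part of a bridge between the subunits, had an enrichment of 4.14 and 4.80 in AID_ctrl, 4.80 and 4.31 in AID_aux and 6.08 and 4.11 in AID_wash, and a median percentile of 35.2. RPS27 had 4.19 and 5.69, 4.83 and 4.65, and 3.95 and 5.20, and a median percentile of 40.1. Every value of RPL19 and RPS27 was below every value of RPL11 and RPL34. RPL13 reached 4.07 to 5.71. RPL3, which reaches toward the peptidyl transferase centre, reached 4.10 to 5.18. RPL38, known in the mouse for its part in translating Hox transcripts, reached 4.90 to 6.36. RPL19 also had a narrow interval, 451 bp by the median over lists, and RPS27 one of 543 bp, against 1277 bp for RPL11 and 1027 bp for RPL34. This is the interval of the highest peak alone. The length called at RPL19 within 1000 bp of the start was 679 and 906 bp in AID_ctrl, 910 and 865 bp in AID_aux and 874 and 934 bp in AID_wash.

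**Figure D1:**
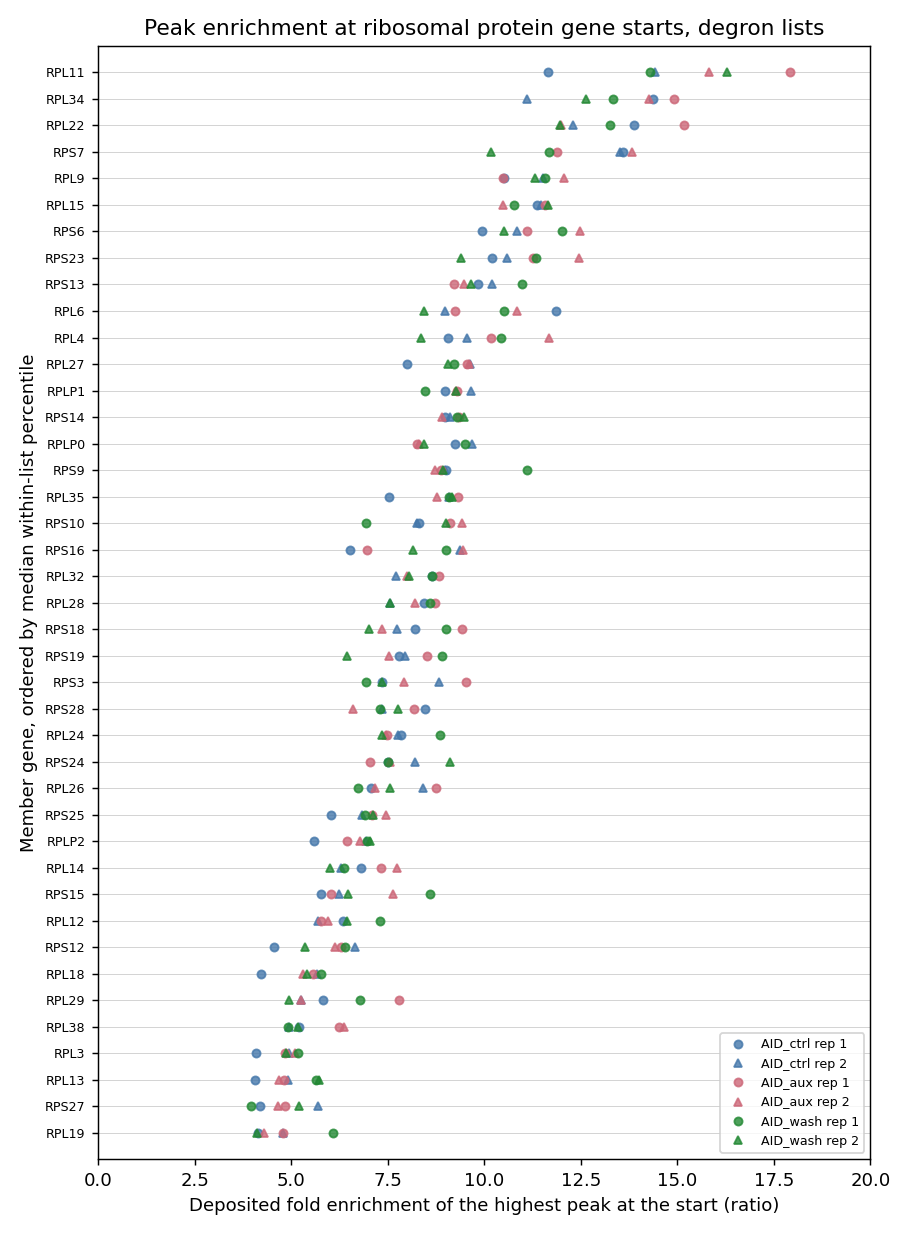
Deposited fold enrichment (ratio, x axis) of the highest peak at the start of each of 41 members (y axis, ordered by median within-list percentile), with 1 point per degron library, coloured by group and shaped by replicate. RPL11, at 11.6 to 17.9, lies to the right of all values of RPL19, at 4.11 to 6.08, and points of the 3 groups are interleaved along most rows.

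The order of members was alike in all lists. Spearman's rho of enrichment over the 41 members was 0.875 to 0.893 for the 3 pairs of libraries of 1 group and 0.840 to 0.942 for the 12 pairs from different groups. These libraries share a cell line and the same promoters, so the values only describe the lists. The median percentile had a rho of -0.171 with the GC content of the promoter over the 41 members, whose median GC content was 57.7% against 62.7% in all genes. Large-subunit genes (24, median percentile 77.1) and small-subunit genes (17, median 74.6) lay close together.

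The stalk proteins RPLP0, RPLP1 and RPLP2 form the flexible arm that recruits elongation factors. RPLP0 had an enrichment of 9.24 and 9.69 in AID_ctrl, 8.25 and 8.32 in AID_aux and 9.51 and 8.45 in AID_wash. RPLP1 had 8.97 and 9.66, 9.29 and 9.28, and 8.46 and 9.26. RPLP2 had 5.58 and 6.95, 6.45 and 6.77, and 6.98 and 7.03. RPLP2 was thus the lowest of the 3 by enrichment in every list, although by −log10 p its median percentile was 98.2, against 97.0 for RPLP0 and 91.8 for RPLP1. Its interval was the widest of the 3, at 1789 bp, against 1251 bp for RPLP0 and 1270 bp for RPLP1.

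RPS6, RPS14 and RPS19 were among the members named for their known roles. RPS6, the substrate of the S6 kinases, had an enrichment of 9.94 and 10.8 in AID_ctrl, 11.1 and 12.5 in AID_aux and 12.0 and 10.5 in AID_wash. RPS14, whose loss contributes to the 5q- syndrome, had 8.98 and 9.11, 9.35 and 8.89, and 9.30 and 9.47. RPS19, the gene most often mutated in Diamond-Blackfan anaemia, had 7.78 and 7.95, 8.51 and 7.53, and 8.90 and 6.45. Their median percentiles were 89.1, 81.8 and 74.1. RPS14 spanned the narrowest range of the 3.

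The summit of the peak lay upstream of the start in most members. With upstream positions negative, the median summit of members lay at -103.5 bp (-112 to -93 bp over the 6 lists), against -45 bp for all called promoters. Its median distance in either direction was 109 bp, against 101 bp. RPS14 had its summit 7 to 17 bp upstream in all 6 lists, and RPLP1 had it between 25 bp upstream and 12 bp downstream. RPLP2 (401 to 409 bp upstream) and RPL28 (481 to 487 bp upstream) had it farther away, at nearly the same base in every list. RPL26 had 2 alternative positions, 436, 439 and 443 bp upstream in AID_ctrl replicate 1, AID_aux replicate 2 and AID_wash replicate 2, and 32 to 50 bp upstream in the other three lists. RPL19 likewise had it 52 and 59 bp downstream in 2 lists and 271 to 291 bp upstream in 4. Both positions of RPL26 and of RPL19 occurred in more than 1 group.

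**Figure D2:**
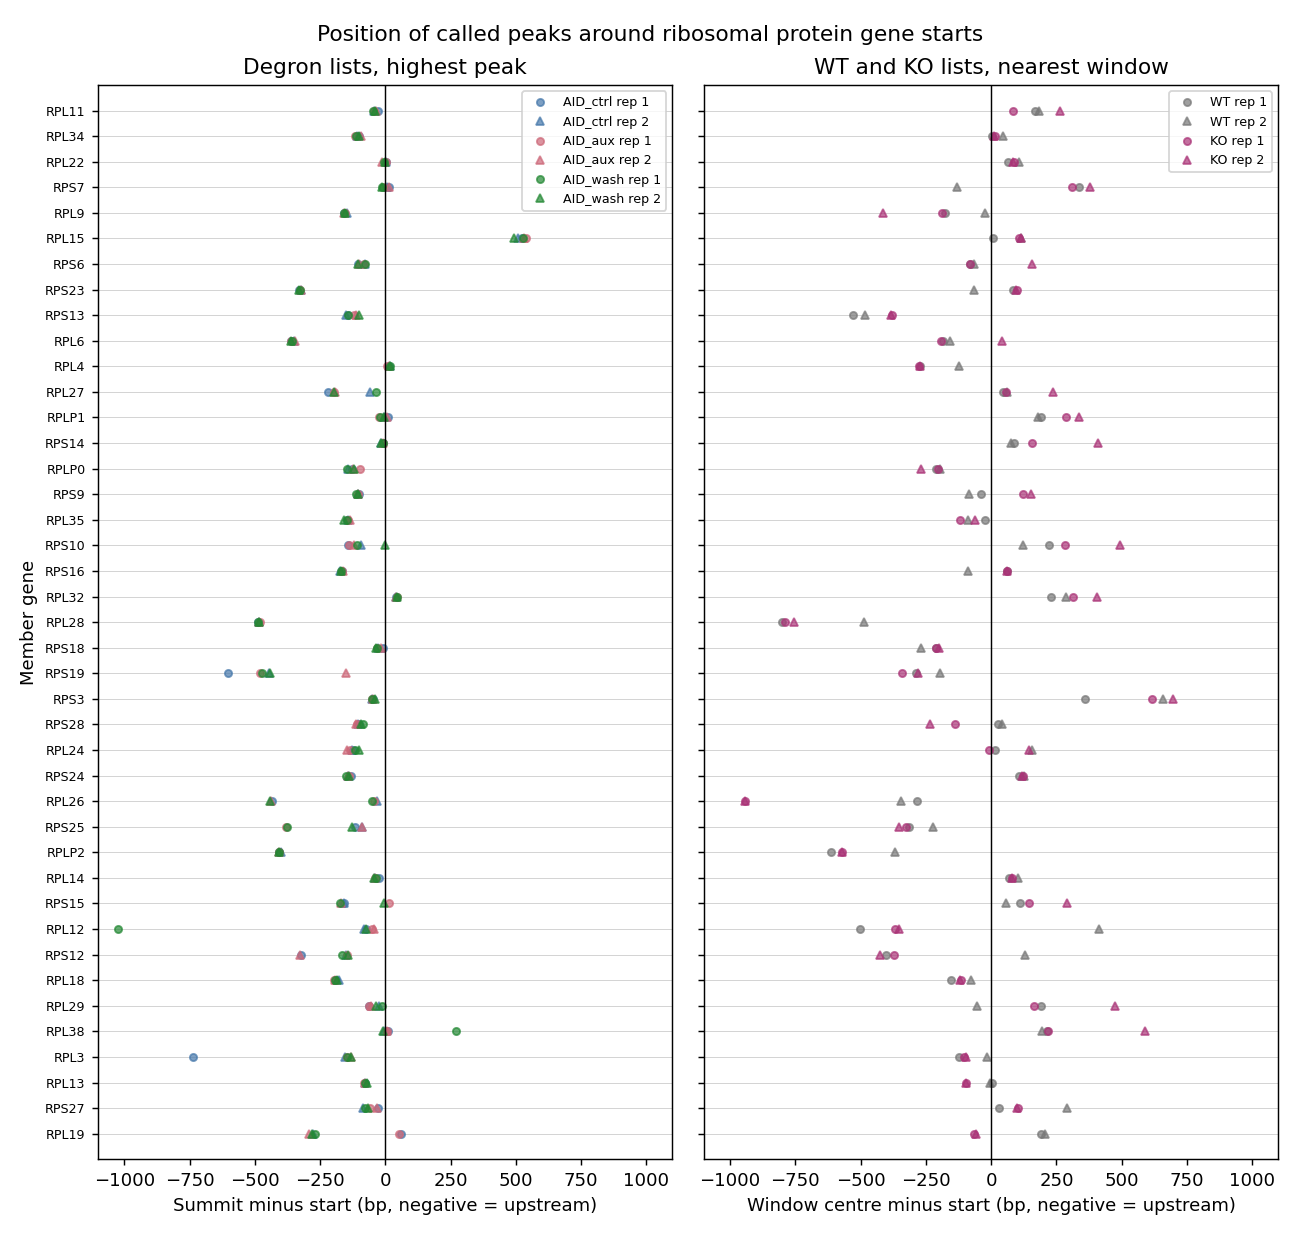
Position relative to the listed start (x axis, bp along the gene's strand, negative values upstream) of the highest peak's summit in each degron list (left) and of the centre of the nearest 500 bp window in the WT and KO lists (right), for 41 members in order of median enrichment percentile. Summits of RPLP2 and RPL28 repeat at 401 to 409 and at 481 to 487 bp upstream, and the WT and KO windows of RPL26 lie apart.

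A second gene begins within 1000 bp in the opposite direction at 9 of the 41 starts. These divergent pairs are RPL4 with ZWILCH, RPL9 with LIAS, RPL12 with LRSAM1, RPL15 with NKIRAS1, RPL18 with SPHK2, RPL35 with ARPC5L, RPS18 with VPS52, RPS25 with TRAPPC4 and RPS28 with NDUFA7. Their called length within 1000 bp of the start had a median of 1431 bp, against 1192 bp for the other 32 members. A peak at such a start cannot be assigned to one gene of the pair. In addition, 16 of the 49 genes contain 29 genes of small nucleolar RNAs, which guide modification of ribosomal RNA.

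Called length around the start was the value tested over libraries in the degron line. It is the number of base pairs within 1000 bp of a listed start that a library called as peak. Auxin for 12 h gave no member a change that passed the test, and neither did the washout. Limma was fitted to 10802 promoters in the 6 degron libraries, and with Benjamini-Hochberg adjustment it called 0 (0%) in each of the 3 comparisons at an adjusted p of 0.05. At an unadjusted limma p under 0.05, 655, 671 and 719 promoters passed for AID_aux against AID_ctrl, AID_wash against AID_aux and AID_wash against AID_ctrl. That is 6.06%, 6.21% and 6.66% of those tested, and 3, 5 and 3 of the 41 members were among them. The median member differed by -31.5, 16.5 and -33.0 bp in the 3 comparisons, against 2, -18.3 and -16.5 bp over all promoters, with a median standard error of 89.1 bp for a member.

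RPLP0 had the smallest p of any member after auxin. Its called length was 1349 and 1253 bp in AID_ctrl, 1651 and 1630 bp in AID_aux and 1225 and 1208 bp in AID_wash. Both AID_aux libraries lay above the other 4, with no overlap. The difference from AID_ctrl was 340 bp (SE 48.8), with an adjusted p of 0.328 by limma, and the difference of AID_wash from AID_aux was -424 bp, with an adjusted p of 0.407 by limma. Both comparisons share the AID_aux libraries. In the WT libraries the length at RPLP0 was 500 and 500 bp and in the KO libraries 901 and 812 bp, again without overlap. The KO values hold a further 500 bp window in the gene body, which the limit at 1000 bp cut.

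RPS28, a small-subunit protein near the mRNA exit, showed the opposite order after auxin without passing the test. Its called length was 1595 and 1589 bp in AID_ctrl, 1273 and 1101 bp in AID_aux and 1598 and 1213 bp in AID_wash. AID_aux replicate 1 lay above one AID_wash library, so those groups overlapped. The difference of AID_aux from AID_ctrl was -405 bp (SE 145), with an adjusted p of 0.789 by limma. RPS9 was the third member under an unadjusted p of 0.05, with a difference of -140 bp (adjusted p = 0.793, limma).

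In the washout comparisons the members under an unadjusted limma p of 0.05 were largely others. Against AID_aux, AID_wash was higher at RPL11 (248 bp), RPS9 (163 bp) and RPS7 (155 bp) and lower at RPL29 (-169 bp) and RPLP0. Against AID_ctrl, AID_wash was lower at RPL12 (-241 bp) and RPL35 (-128 bp) and higher at RPS23 (223 bp). None of these passed the adjusted threshold, and the smallest adjusted p of a member was 0.665 in this comparison. RPL35 was named after its value was seen.

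For RPL11 the called length was 1327 and 1475 bp in AID_ctrl, 1311 and 1107 bp in AID_aux and 1444 and 1470 bp in AID_wash. The AID_aux libraries were the lowest pair, with AID_aux replicate 1 close to AID_ctrl replicate 1. RPS6 lay between 1143 and 1203 bp in all 6 libraries, the narrowest range of the members named for their roles. RPS14 gave 1485 and 1479 bp, 1490 and 1194 bp, and 1292 and 1481 bp. RPS19 gave 1152 and 1505 bp, 1540 and 1518 bp, and 1670 and 1368 bp. In RPS14 and RPS19 the 3 groups did not separate, apart from AID_aux lying above AID_ctrl at RPS19.

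Groups without overlap were counted as a description. After auxin, 4 of 41 members were longer and 11 shorter in both libraries than in either AID_ctrl library, against 16.4% and 14.7% of all promoters. The 11 shorter members are 26.8% of the set. AID_wash against AID_aux had 8 longer and 7 shorter, against 10.1% and 21.5%, and AID_wash against AID_ctrl had 2 longer and 8 shorter, against 11.2% and 20.8%. Start windows were neither lost nor gained as calls in any member in these 3 comparisons. Over all starts, a call made by both libraries of the reference group and neither of the other was lost at 0.171%, 0.24% and 0.209%, and gains in the reverse sense made up 0.19%, 0.0506% and 0.0885%.

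**Figure D3:**
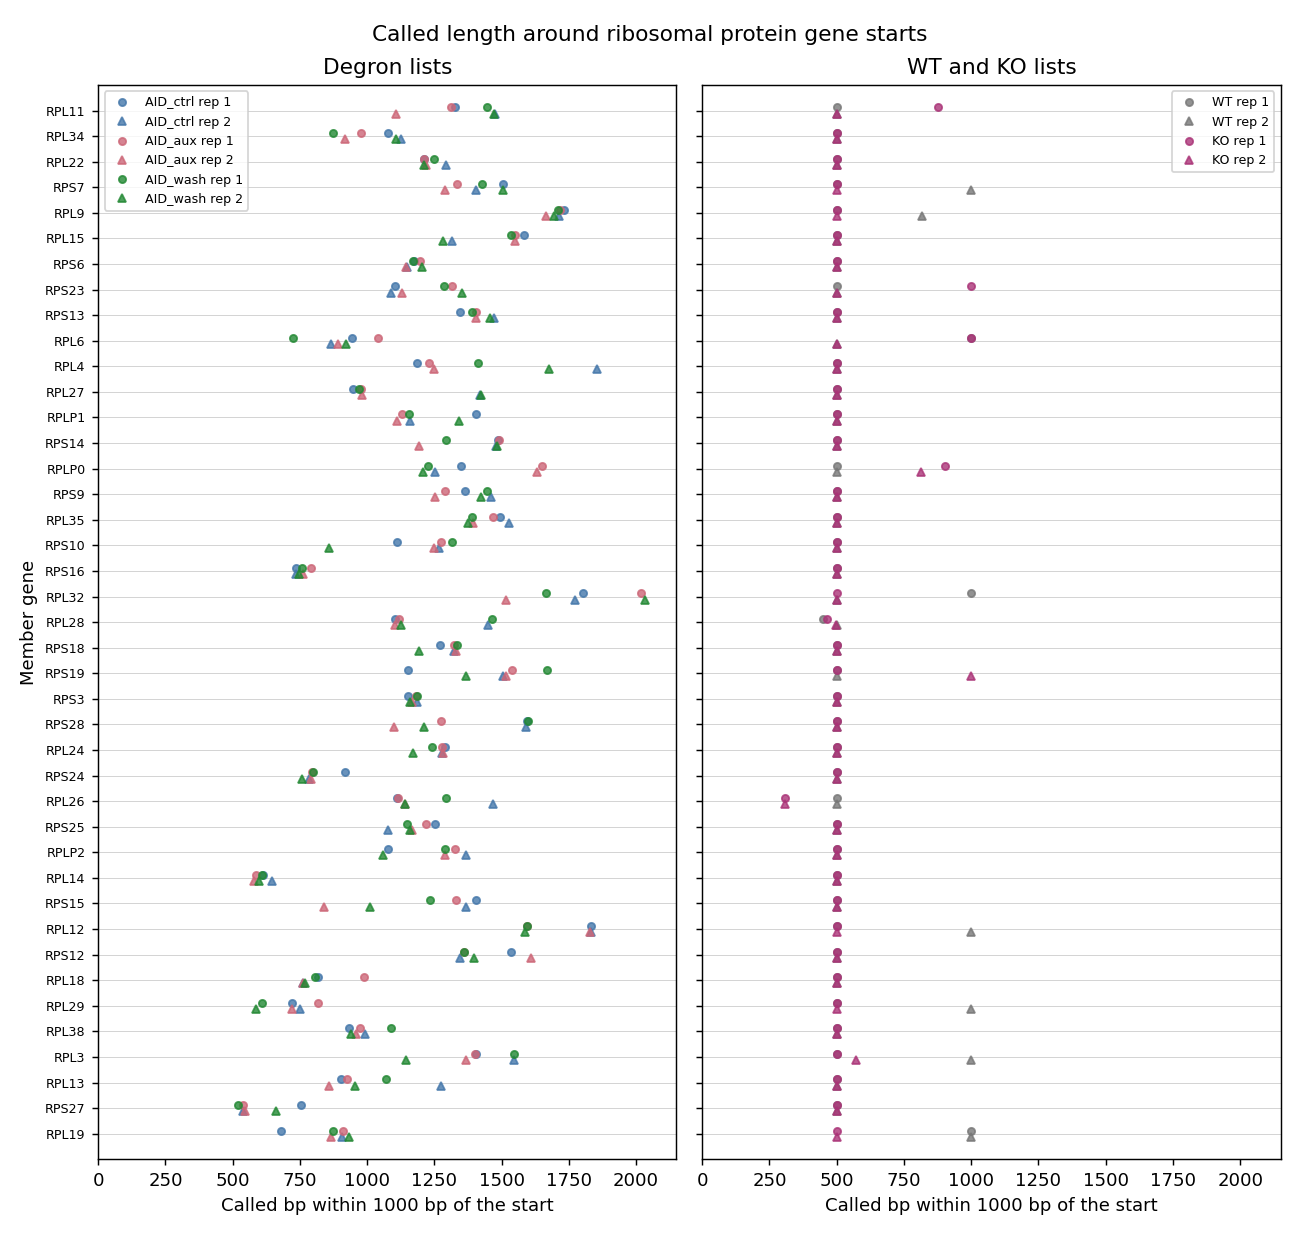
Called length within 1000 bp of the start (x axis, bp) for 41 members (y axis, ordered by median enrichment percentile), with 1 point per library, in the degron lists (left) and the WT and KO lists (right), where called windows are 500 bp wide and coinciding points lie on top of each other. At RPLP0 the AID_aux points (1651 and 1630 bp) and the KO points (901 and 812 bp) lie to the right of their reference groups. The KO points at RPLP0 hold a further 500 bp window, cut by the 1000 bp limit. At RPL26 the KO points (307 and 309 bp) lie to the left, because the 1000 bp limit cuts their 500 bp windows.

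Outside the starts, some regions of member windows were called by both libraries of one group and by neither of another. After auxin, 2 of 137 member regions were lost (1.46%, against 2.36% of all regions) and 4 were gained (2.92%, against 2.58%). In the member windows 71.5% of regions were called in all 4 libraries, against 59.6% of all regions. None of the changed regions overlapped a member's start window.

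The region gained at RPLP0 lies at chr12:120200053-120200507, in the gene body, 604 bp downstream of the start. It was called over 455 and 395 bp in AID_aux and over 0 bp in all 4 AID_ctrl and AID_wash libraries. WT libraries called 0 bp of it and KO libraries 455 and 370 bp. Its far end crosses the limit at 1000 bp from the start. The part inside the limit is counted in the length change given above, so it is not a separate measurement. The interval at the start itself was no longer after auxin: 1349 and 1253 bp in AID_ctrl, 1254 and 1248 bp in AID_aux and 1225 and 1208 bp in AID_wash. The peaks of the gained region stood at percentiles 31.2 and 29.2 of −log10 p in the AID_aux lists, among the weaker peaks. In the KO against WT lists the region at this place, chr12:120199923-120200511, was also gained.

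A region upstream of RPS16 followed the same calls. RPS16 is a small-subunit protein whose tail contacts the P-site tRNA. At chr19:39440311-39440512, outside the gene body, AID_aux called 151 and 202 bp, AID_ctrl and AID_wash 0 bp, WT 0 bp and KO 202 and 202 bp. Its percentiles of −log10 p were 21.4 and 21.9. RPL27 gained chr17:43003807-43004269 in both AID_aux libraries (349 and 454 bp), which 1 KO library called too. RPS12 gained chr6:132819633-132819798, which AID_wash replicate 2 and both WT libraries also called. Both KO libraries called 0 bp of it. It lies within chr6:132819463-132820147, a region lost in KO against WT, so the calls after auxin and in KO went opposite ways there.

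The regions lost after auxin were at RPS6 and RPL30. At RPS6 the region chr9:19374364-19375514, outside the gene body and 4722 bp from the start, was called over 1151 and 887 bp in AID_ctrl, 0 bp in AID_aux and 834 and 939 bp in AID_wash. It was called over 500 bp in WT replicate 1 and KO replicate 1 and over 0 bp in WT replicate 2 and KO replicate 2. The AID_ctrl peaks there stood at percentiles 46.1 and 24.0 of −log10 p, and the AID_wash peaks at 9.11 and 7.80. The region lost at RPL30 was 181 bp wide, called over 164 and 180 bp in AID_ctrl and over 0 bp in AID_aux and AID_wash.

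After the washout, the AID_aux gains at RPLP0, RPL27 and RPS16 were the 3 regions lost of 129 (2.33%, against 3.48%). Regions gained against AID_aux were also 3 (2.33%, against 1.21%): the RPS6 region, chr3:12831482-12832028 at RPL32 and chr19:55391067-55391650 at RPL28. Against AID_ctrl, 1 of 133 regions was lost, at RPL30 (0.752%, against 2.67%), and 2 were gained (1.5%, against 0.685%), at RPL32 and at chr5:82278988-82279257 near RPS23. These comparisons share libraries with the auxin comparison, so a return after the washout repeats the same AID_aux calls.

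**Figure D4:**
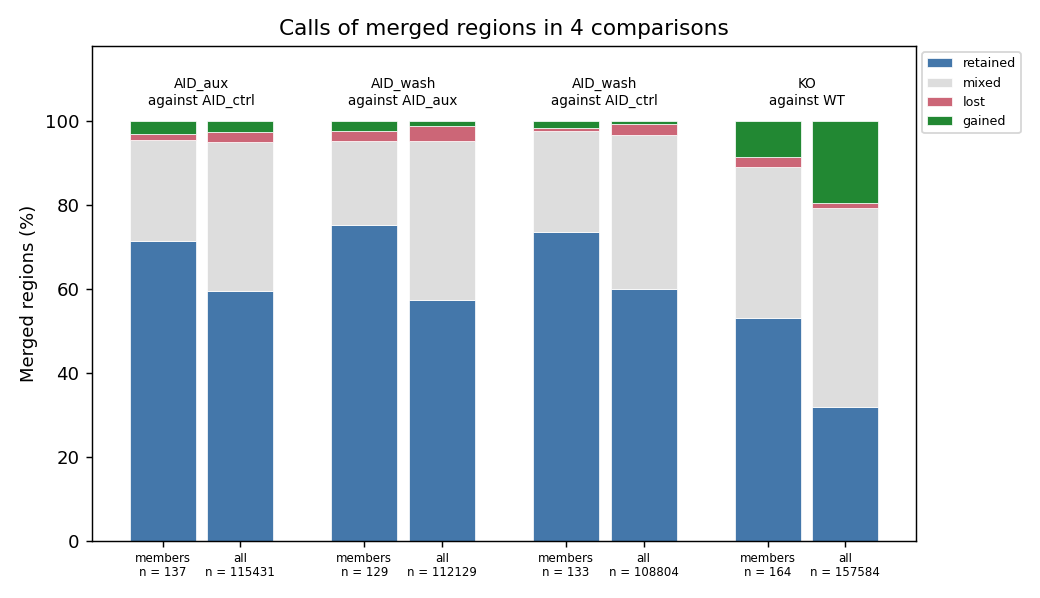
Share of merged regions (y axis, %) that were retained (called in all 4 libraries), lost, gained or mixed (any other pattern) in each of 4 comparisons (x axis), for regions in member windows beside all regions, with the number of regions under each bar. Retained regions make up 71.5% of member regions against 59.6% of all regions after auxin, and 53.0% against 31.9% for KO against WT. Member regions include those at starts.

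The KO lists were longer than the WT lists, and regions gained outnumbered those lost at the members as over all regions. Of 164 member regions, 4 were lost (2.44%, against 1.24%) and 14 gained (8.54%, against 19.5%), and 87 (53.0%) were called in all 4 libraries. The only changed region that overlapped a start window was at RPL26, and its nearest base lay 35 bp upstream of the start. There, WT libraries called a region at chr17:8383228-8383788 that KO libraries did not, while KO libraries called the adjacent chr17:8383885-8384386, which WT libraries did not. All 6 degron lists called both places. The called length at RPL26 within 1000 bp was 500 and 500 bp in WT and 307 and 309 bp in KO. The KO windows were also called over 500 and 500 bp. The limit at 1000 bp cut them, so the lower value reflects a window placed farther upstream, not a narrower one. RPL3 had the same pattern away from its start, with 2 regions lost and 1 gained side by side.

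Further regions gained in KO lay in the windows of RPS27, RPL37, RPS6, RPS3, RPLP0, RPS2, RPL13, RPL19, RPL27, RPS28 and RPS16, the last with 2 regions, and 1 was lost at RPS12. The region gained at RPS6, chr9:19372546-19373167, is not the one that AID_aux lost. At the starts, calls were lost in KO at 2 members, RPL26 and RPL32 (2.18% of all starts), and gained at 1, RPL12 (1.84%). Of 41 members, 1 (RPLP0) had a longer called length in both KO libraries (7.99% of all promoters) and 2 (RPL19 and RPL26) a shorter one (4.58%). At RPL19 both WT libraries called 1000 bp and both KO libraries 500 bp. At RPL26 the shorter length came from the cut of the KO windows at 1000 bp.

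The share of each library's called length that lay in member windows summarises the set. It was 1655 and 1816 bp per called Mb in AID_ctrl, 1746 and 1769 in AID_aux and 1933 and 1780 in AID_wash. It was 1219 and 1611 in WT and 1045 and 1056 in KO. The KO libraries were the lowest, although their called length in member windows, 68107 and 61349 bp, was above that of the WT libraries, 56579 and 53118 bp. The total length of the KO lists, the denominator, was larger too, and its part in the lower share was not tested.

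None of these differences could pass a test of 2 libraries against 2, for which the smallest two-sided p is 0.33. AID_aux minus AID_ctrl was 21.6 bp per Mb (exact permutation p = 1), and AID_wash minus AID_aux was 99.4 (exact permutation p = 0.33, adjusted over the 4 comparisons 0.667). AID_wash minus AID_ctrl was 121 (exact permutation p = 0.667, adjusted 0.889) and KO minus WT was -365 (exact permutation p = 0.33, adjusted 0.667). The groups did not overlap for AID_wash against AID_aux and for KO against WT. Without AID_ctrl replicate 1 the first difference was -58.5, and without WT replicate 2 the last was -169.

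Over the whole windows, from 5000 bp before to 5000 bp after the gene, the called length differed widely among members. RPL3 had the most, with 4981 and 5658 bp in AID_ctrl, 5473 and 4940 bp in AID_aux and 5198 and 4785 bp in AID_wash. RPL12 (median 3867 bp), RPL23 (3860 bp), RPS9 (3748 bp) and RPL28 (3741 bp) followed. The fewest were at RPL34, RPL37, RPS20, RPS23 and RPLP1, with medians of 1027, 1122, 1151, 1209 and 1357 bp. RPS20, mutated in a hereditary form of colorectal cancer, had 1 called interval in every library. RPL34 combined one of the shortest called lengths with one of the highest start peaks, and RPL3 the longest with one of the lowest. The called length of RPL3 includes the region chr22:39308658-39312065, outside its gene body, so its length and its start peak describe different places.

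Regions at starts differed from those elsewhere in the windows. In the degron lists, 41 merged regions overlapped start windows, with a median width of 1553 bp, and all 41 were called in all 6 libraries. Another 10 lay at ends of members without a listed start, and 9 of them were called in all 6. Elsewhere in the windows there were 91 regions with a median width of 584 bp, of which 46 (50.5%) were called in all 6 libraries and 22 in only 1. Over all regions of the genome, 51.6% were called in all 6. In the WT and KO lists, 38 of 42 regions at start windows and 41 of 112 regions elsewhere were called in all 4 libraries.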

How the data were processed

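Chromatin accessibility was measured by Omni-ATAC on 50000 viable cells per library. The submitters' processing notes list the genome build hg38 and the tools MACS2 2.1.1, Bowtie2 2.4.2, Trim Galore 0.6.10 and Picard, without parameters. Peaks were deposited per library. The deposited degron lists hold 4 values per peak from the authors: a score, a ratio (fold enrichment over background), −log10 p-value and −log10 q-value. For WT and KO, coordinates alone were deposited, as windows of 500 bp. Intervals on chromosomes 1 to 22 and X were counted from 1 and merged where they overlapped or touched, and chromosome Y was left out. A library called a feature when a peak overlapped it by 1 bp or more.

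Starts and sequences came from RefSeq (GRCh38.p14), and a gene with several listed starts was called if any start was, a choice made after that table was seen. Called length was tested with limma 3.58.1 (R 4.3.3; trend, 3 residual degrees of freedom, promoters called in at least 2 of 6 libraries, threshold 0.05), after a check on simulated data. Shares were tested with exact permutation tests (scipy 1.17.1). The alternatives are given with their effect in the closing section. Samples with the same replicate number did not deviate together in called length (correlations -0.0325 to 0.0063 over promoters), and they were treated as unpaired. With 2 libraries per group this check cannot exclude a shared preparation by replicate number.

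The members and lists were chosen with earlier results of these data known. Named members are the 5 highest and 5 lowest by enrichment percentile, the 5 with most and the 5 with fewest called bp, those with an uncalled start, those with lost or gained regions (at most 12 per comparison), and RPL5, RPL11, RPS6, RPS14, RPS19, RPLP0, RPLP1 and RPLP2.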

Additional observations from a re-analysis of the deposited data

How the results depend on the processing

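With 2 libraries per group and peak lists in place of reads, a lost or gained region rests on calls alone. Counts of member regions lost or gained were 6 after auxin (AID_aux against AID_ctrl), 6 for AID_wash against AID_aux, 3 for AID_wash against AID_ctrl and 18 for KO against WT. Leaving out 1 library at a time gave 9 to 17, 9 to 15, 8 to 13 and 21 to 41 in that order. The highest counts came without AID_ctrl replicate 2 (17), AID_aux replicate 2 (15), AID_ctrl replicate 2 (13) and WT replicate 1 (41), where 3 libraries have to differ in place of 4. Windows of 1000 bp at either end gave 3 for AID_aux against AID_ctrl, 1 for AID_wash against AID_ctrl and 6 for KO against WT. Equal list lengths gave 2, 2 and 1 in the degron comparisons. The top 50% of each list by −log10 p gave 2 for AID_aux against AID_ctrl and 1 for AID_wash against AID_aux. The cause was not tested beyond the fewer regions or libraries these settings hold.

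Limma called 0 members under every setting tried. Over all promoters it called 63, 56 and 59 in the 3 degron comparisons within 500 bp of the start and 11, 13 and 7 with the top 50% of each list, against 0 within 1000 bp with whole lists, and the cause was not tested. The difference of the share in member windows between AID_aux and AID_ctrl was -4.13 bp per Mb with windows of 1000 bp and -41.4 with the top 50% of each list, and leaving out 1 library gave -58.5 to 102. For the other 3 comparisons the direction held without each library in turn: 23.3 to 175, 40.9 to 201 and -561 to -169. Starts called in all 10 libraries fell from 28 to 17 when at least 150 bp had to be covered, and were 28 to 33 without 1 library. The median percentile was 91.3 by −log10 p in place of 76.4 by enrichment, and 75.9 to 76.8 without 1 library. With the replicate number as a block, limma called 0 promoters in each of the 3 degron comparisons, and the exact permutation test of the share within replicate numbers gave p = 1, 0.5, 1 and 0.5, with 0.5 the smallest possible. The replicate block changed no call. Leaving out libraries for the share, the percentile and the starts called, and using only the most upstream start, were alternatives chosen after seeing the data.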
